A study of Mus musculus with 6 samples.

Results

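The genes described here are 10 members of the antioxidant programme run by the transcription factor NRF2: Nfe2l2, which encodes NRF2 itself, its repressor gene Keap1, and 8 genes that supply glutathione or reduce oxidised molecules (Slc7a11, Gclc, Gclm, Gsr, Txnrd1, Nqo1, Prdx1 and Srxn1). They were found by gene symbol, and all 10 were among the 21399 genes listed for each library. Their RNA was measured by sequencing in 3 mouse libraries labelled KO and 3 labelled WT, as FPKM, the number of fragments of a gene scaled to transcript length and library depth. In both groups, primary microglia of CD45.2 mice, either KO or WT, had been deprived of oxygen and glucose (OGD, a culture model of ischaemia), then reoxygenated together with peritoneal macrophages from CD45.1 mice. The gene deleted in the KO mice is not named in the labels, nor are the kind of deletion, the age of the mice and the length of the co-culture, while the title of the series names PPARα. The submitters' description says that CD45.1+ microglia were sorted, although it gives CD45.1 to the macrophages, and each sample is labelled with both cell types. The labels do not tell whether replicates are separate cultures or mice, so p-values here reflect only the spread among 6 libraries, part or all of which may be technical.

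NRF2 is held at a low level by KEAP1, an adaptor that presents it to a CUL3 ubiquitin ligase for breakdown. When oxidants or electrophiles modify cysteines of KEAP1, NRF2 escapes, pairs with small MAF proteins and binds antioxidant response elements near its target genes. In macrophages and microglia these targets supply the glutathione and reducing power that contain the oxidants made during inflammation and reperfusion. Most of this control acts on NRF2 protein, which RNA levels do not measure.

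The windows around the start sites of these genes were searched for the core letters of an antioxidant response element, because such elements are where NRF2 binds. Windows of 250 bases before to 50 bases after each RefSeq start (GRCm38.p6) were at hand for 8 of the 10 genes, 10 windows in all, since Txnrd1 has several starts. The letters TGACNNNGC, read on both strands, were in 5 of these 10 windows and in 12.4% of all 32851 promoter windows of the same length. The related letters TGAGNNNGC were in 3 of the 10 windows and in 17.6% of all windows. The stretches below show the matches that lie upstream of the start and outside annotated exons, on the strand of the gene, with the match in capitals. A match given as reverse has the searched letters on the opposite strand.
Prdx1, TGACNNNGC in reverse, chr4:116685441-116685499 (+): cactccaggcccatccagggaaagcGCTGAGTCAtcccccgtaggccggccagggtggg
Gclm, TGACNNNGC in reverse, chr3:122245398-122245456 (+): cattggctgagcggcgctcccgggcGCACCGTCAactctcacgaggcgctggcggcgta
Txnrd1, at one of its starts, TGACNNNGC in reverse, chr10:82859089-82859147 (+): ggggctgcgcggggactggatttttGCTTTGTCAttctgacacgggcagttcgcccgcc
Srxn1, TGAGNNNGC, chr2:152105454-152105512 (+): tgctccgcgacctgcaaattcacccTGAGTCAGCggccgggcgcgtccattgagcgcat
Srxn1, TGAGNNNGC in reverse, chr2:152105341-152105399 (+): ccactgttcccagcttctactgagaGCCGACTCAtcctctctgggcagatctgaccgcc
Slc7a11, TGAGNNNGC in reverse, chr3:50443677-50443735 (-): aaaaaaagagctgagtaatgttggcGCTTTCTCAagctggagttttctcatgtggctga

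The Prdx1 match is the full sequence TGACTCAGC read in reverse, which 0.454% of all windows hold. It lies 133 bases before the start of Prdx1. Whether any of these matches is bound by NRF2 or bears on the level of its gene was not tested. The Srxn1 match 45 bases before its start and the Prdx1 match both hold the letters TGAGTCA, which also make up an AP-1 site. Further matches, in or beside annotated exons, were found for Nfe2l2 at 240 bases before its start and for Prdx1 and Srxn1 just after theirs. The windows of Keap1 and Nqo1 held neither set of letters, which says nothing about elements farther away.

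The reads recovered from the FPKM values summed to between 34542822 and 38092819 per library. The cells of origin were checked with marker lists. Core macrophage markers, among them Csf1r, Adgre1 and Lyz2, reached at least 1 FPKM in every library for 10 of 10 genes, and B cell markers likewise for 10 of 10. Among microglia markers, the highest value over the 6 libraries was 1.09 FPKM for P2ry12 and 0.152 FPKM for Sall1. Ppara, near the detection limit, had 13, 23 and 10 reads in the KO libraries and 11, 1 and 2 reads in the WT libraries, and these values do not check the labels. Summed mast cell markers came to 9.92 FPKM in WT replicate 1 and to between 104 and 544 FPKM in the other libraries.

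Most of the NRF2 and glutathione defence genes had more RNA in the libraries labelled KO, but none passed the test. The mean difference, taken as KO minus WT on log2(FPKM + 1), was positive for 9 of 10 members with a median of 0.68. Over all 10732 genes tested, 35.4% had a positive difference and the median was -0.06. By limma with Benjamini-Hochberg adjustment at 0.05, 0 of the 10 members were called, against 3 of 10732 genes (0.0280%), and voom, limma's model for counts, called 0 members from the recovered reads. At an unadjusted limma p under 0.05 there were 7 members, all higher in KO, where 8.86% of all genes were. The groups did not overlap for 4 members, where they did not for 24.9% of all genes. The KO values lay entirely above the WT values for 3 of them (9.75% of all genes) and entirely below for 1 (15.2% of all genes). All 10 members passed the filter of a mean of 1 FPKM, and each did so in both groups. Adjusted p-values of the members ran from 0.11 to 0.88.

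The core macrophage markers were higher in the libraries labelled KO as well. Their mean log2(FPKM + 1) was 8.32, 7.63 and 7.38 in KO replicates 1 to 3, against 6.06, 6.97 and 5.42 in WT replicates 1 to 3. The groups did not overlap, and the difference of 1.63 had an exact two-sided permutation p = 0.1, the smallest that 3 against 3 libraries allow. Of these 10 markers, 8 had all KO values above all WT values, their summed level ran from 4915 to 11293 FPKM in KO and from 1315 to 3884 FPKM in WT, and none was at 0. In such bulk samples, a larger share of macrophages and more RNA of a gene per macrophage cannot be told apart. With the core macrophage level as a covariate in the limma fit, the median difference of the 10 members was -0.10 in place of 0.68, and Gclm, Nqo1, Prdx1 and Srxn1 turned negative, with 0 members and 0 of all genes called (1308 genes at an unadjusted p under 0.05). The part of macrophage content in the differences below was not tested further.

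**Figure D1:**
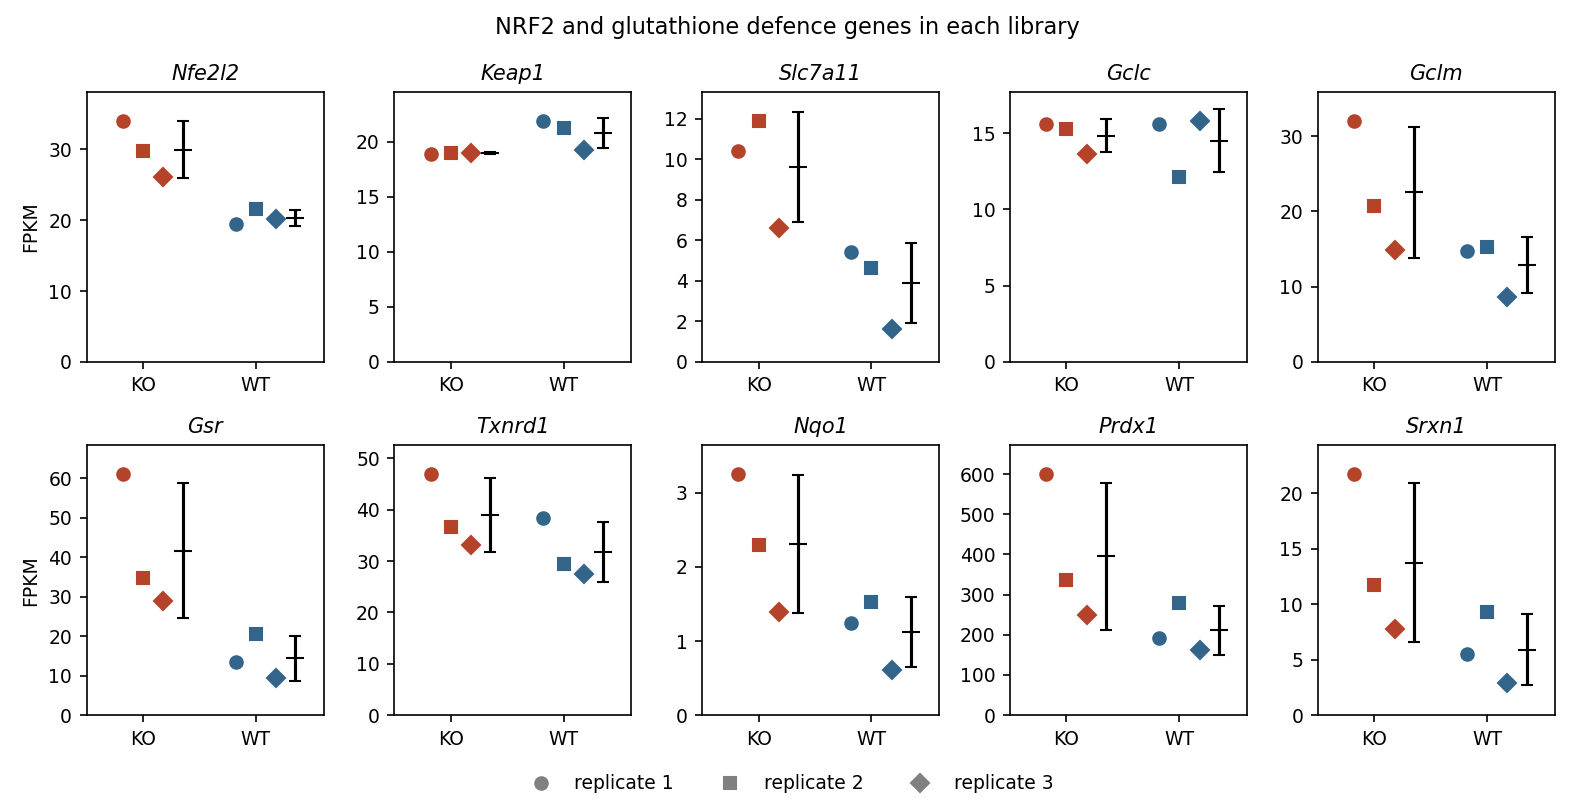
FPKM of each of the 10 genes (vertical axes, each starting at 0) in the 3 KO and 3 WT libraries, with 1 point per library, a symbol per replicate number, and the mean and SD of each group beside the points. Nfe2l2, Slc7a11 and Gsr have all KO points above all WT points, Keap1 has all KO points below, and the other 6 genes overlap.

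Of the regulators, Nfe2l2 was at a higher level in every KO library than in any WT library. It stood at 34.0, 29.8 and 26.02 FPKM in KO replicates 1 to 3, against 19.4, 21.6 and 20.1 FPKM in WT replicates 1 to 3. The means were 29.9 ± 3.99 FPKM in KO and 20.4 ± 1.11 FPKM in WT (SD, n = 3 each), a ratio of 1.47. KO replicate 1 was 1.31 times KO replicate 3, while in WT the highest value was only 1.11 times the lowest. The log2 difference was 0.53 with an SE of 0.11 (95% interval 0.27 to 0.78, unadjusted p = 0.0017, adjusted p = 0.11 by limma). It had the smallest p of the members and did not pass with all 6 libraries. Without WT replicate 2 the difference was 0.57 and the adjusted limma p was 0.045, when 5.01% of all genes were called. With libraries weighted by their quality (limma's array weights) it was 0.52 with an adjusted p of 0.022, when 5.70% of all genes were called. With the core macrophage level as a covariate the difference was 0.27 and the adjusted limma p was 0.48. Over all 19 alternative settings the adjusted p ran from 0.022 to 0.48. Nfe2l2 is a protein-coding gene at chr2:75675513-75704641 (GRCm38, minus strand).

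Keap1 was the only member with a lower mean in KO, and its difference was small. It stood at 18.9, 19.03 and 19.03 FPKM in the KO libraries, against 21.9, 21.3 and 19.3 FPKM in the WT libraries. The groups did not overlap, but WT replicate 3 lay only just above all 3 KO libraries. The log2 difference was -0.12 with an SE of 0.08 (95% interval -0.31 to 0.06, adjusted p = 0.47 by limma). Keap1 (chr9:21229730-21239361, minus strand) overlaps an antisense gene, Gm16754, and the strand setting of the counting is not given in the sources used here. The ratio of Nfe2l2 to Keap1 FPKM was 1.80, 1.57 and 1.37 in the KO libraries, against 0.889, 1.01 and 1.04 in the WT libraries. The groups of this ratio did not overlap (exact two-sided permutation p = 0.1, adjusted p = 0.2 over 5 ratios).

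The genes of glutathione supply did not share one pattern. Slc7a11 encodes the light chain of the transporter that brings in cystine, the source of cysteine for glutathione. It stood at 10.4, 11.9 and 6.62 FPKM in KO replicates 1 to 3, against 5.43, 4.62 and 1.64 FPKM in WT replicates 1 to 3. The groups did not overlap, with WT replicate 3 far below the rest and KO replicate 2 the highest. The means were 9.64 ± 2.71 FPKM in KO and 3.90 ± 1.997 FPKM in WT (SD, n = 3 each), a ratio of 2.47. The log2 difference of 1.18 (SE 0.35, 95% interval 0.37 to 1.99, adjusted p = 0.17 by limma) did not pass, and it was 0.79 without WT replicate 3. With the core macrophage level as a covariate it was 0.24 (adjusted p = 0.85 by limma). The gene (chr3:49892526-50443614, minus strand) contains 3 processed pseudogenes in the annotation.

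Slc3a2, the heavy chain that carries the Slc7a11 protein to the membrane along with other amino acid transporters, differed less. It stood at 20.7, 19.5 and 17.5 FPKM in KO, against 14.3, 18.4 and 11.6 FPKM in WT, with WT replicate 2 inside the KO range (log2 difference 0.38, SE 0.16, adjusted p = 0.28 by limma). The ratio of Slc7a11 to Slc3a2 FPKM averaged 0.497 ± 0.115 in KO and 0.257 ± 0.119 in WT (SD, n = 3 each), with values that overlapped (exact two-sided permutation p = 0.2, adjusted p = 0.2 over 5 ratios).

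Glutamate-cysteine ligase makes the first and limiting step of glutathione synthesis. Gclc, the catalytic subunit, had 15.6, 15.3 and 13.6 FPKM in KO, against 15.6, 12.1 and 15.8 FPKM in WT. The groups overlapped almost completely, and the log2 difference was 0.04 with a 95% interval of -0.24 to 0.32 (adjusted p = 0.88 by limma). It turned to -0.08 without WT replicate 2 and to -0.01 with array weights. Gclm, the modifier subunit that raises the activity of the catalytic one, had 32.02, 20.7 and 14.9 FPKM in KO, against 14.7, 15.3 and 8.61 FPKM in WT. KO replicate 1 was 2.15 times KO replicate 3, which lay just under WT replicate 2. Its log2 difference of 0.74 (SE 0.30, 95% interval 0.05 to 1.43, adjusted p = 0.27 by limma) was 0.46 without KO replicate 1. The ratio of Gclm to Gclc FPKM was 2.05, 1.35 and 1.09 in KO, against 0.944, 1.27 and 0.543 in WT, with overlap between the groups (exact two-sided permutation p = 0.2, adjusted p = 0.2 over 5 ratios). Gclc (chr9:77754535-77794485) and Gclm (chr3:122245557-122270732) are read from the plus strand, and a transcribed processed pseudogene, Gm6061, overlaps Gclm.

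**Figure D2:**
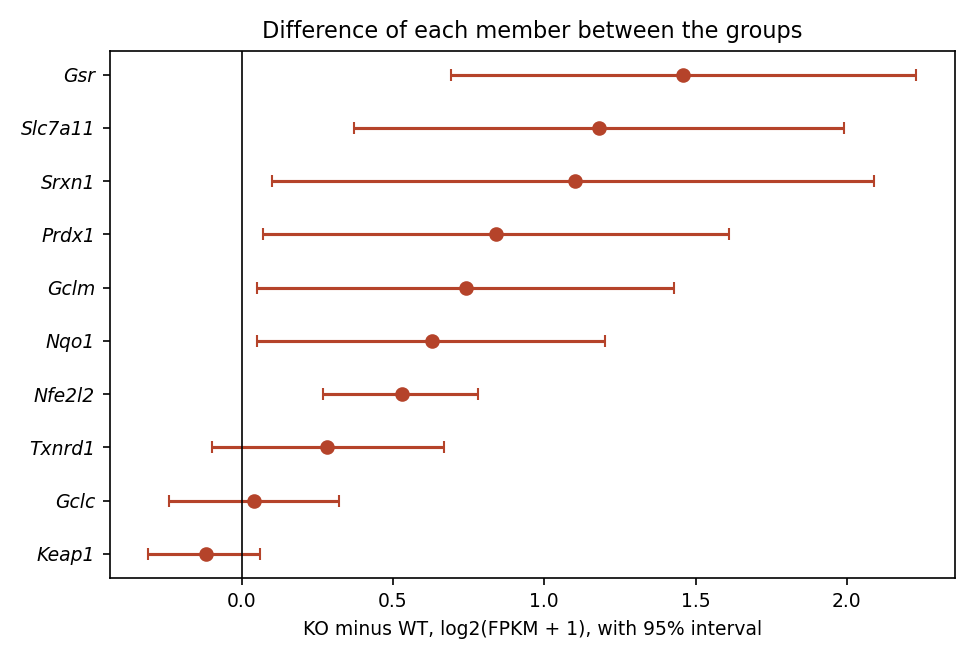
Difference of each gene between the groups, KO minus WT on the log2(FPKM + 1) scale, with its 95% interval from limma, ordered from the highest at the top. Gsr, at 1.46, has the highest difference, and the intervals of Txnrd1, Gclc and Keap1 span 0.

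Gsr had the highest difference of the reductase genes and of all members. It encodes glutathione reductase, which uses NADPH to turn glutathione disulphide back into glutathione. It stood at 60.99, 34.8 and 28.96 FPKM in KO replicates 1 to 3, against 13.4, 20.5 and 9.35 FPKM in WT replicates 1 to 3. Every KO library was above every WT library, with KO replicate 1 highest by a wide margin and WT replicate 2 the nearest WT library to the KO group. The means were 41.6 ± 17.1 FPKM in KO and 14.4 ± 5.63 FPKM in WT (SD, n = 3 each), a ratio of 2.88. The log2 difference of 1.46 (SE 0.33, 95% interval 0.69 to 2.23, unadjusted p = 0.0026, adjusted p = 0.12 by limma) did not pass. It was 1.73 with an adjusted limma p of 0.025 without WT replicate 2, and 1.38 with an adjusted p of 0.017 with array weights. It was 1.15 without KO replicate 1, and over all 19 alternative settings the adjusted limma p ran from 0.017 to 0.73. The gene is at chr8:33652523-33698163, on the plus strand.

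Txnrd1, the cytosolic thioredoxin reductase and a selenoprotein, does for thioredoxin what Gsr does for glutathione. It had 46.9, 36.7 and 33.05 FPKM in KO, against 38.4, 29.4 and 27.4 FPKM in WT. WT replicate 1 lay above KO replicates 2 and 3, so the groups overlapped. The log2 difference was 0.28 with a 95% interval of -0.10 to 0.67 (adjusted p = 0.43 by limma). The ratio of Gsr to Txnrd1 FPKM was 1.30, 0.949 and 0.876 in KO, against 0.350, 0.696 and 0.341 in WT, without overlap (exact two-sided permutation p = 0.1, adjusted p = 0.2 over 5 ratios). Gsr was the more abundant transcript of this pair in KO replicate 1 alone, and Txnrd1 in the other KO libraries and in each WT library. The gene (chr10:82833951-82897712, plus strand) overlaps another protein-coding gene, Eid3.

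Nqo1, a quinone reductase and one of the best-known NRF2 targets, was the least abundant member. It had 3.25, 2.29 and 1.39 FPKM in KO, against 1.24, 1.53 and 0.609 FPKM in WT. KO replicate 3 lay below WT replicate 2, so the groups overlapped. WT replicate 3 held 71 Nqo1 reads (exact Poisson 95% interval 55.5 to 89.6, counting error only), the fewest for any member, so counting error was small beside the spread between libraries. The log2 difference was 0.63 (SE 0.24, 95% interval 0.05 to 1.20, adjusted p = 0.26 by limma). At these low values the added 1 reduces the difference, which was 0.98 with 0.1 added instead and 0.25 with 5 added. Nqo1 (chr8:107388225-107403206, minus strand) overlaps no other annotated gene.

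Prdx1 and Srxn1 act on peroxides in sequence: Prdx1 encodes a peroxiredoxin that reduces hydrogen peroxide, and Srxn1 encodes sulfiredoxin, which restores peroxiredoxins that have been over-oxidised. Prdx1 was the most abundant member, rank 161 of all genes by mean level, at 599.7, 336 and 250.2 FPKM in KO, against 193, 279 and 162 FPKM in WT. KO replicate 3 lay below WT replicate 2, and the log2 difference of 0.84 (SE 0.33, 95% interval 0.07 to 1.61, adjusted p = 0.26 by limma) did not pass. It was 0.49 without KO replicate 1. Srxn1 had 21.7, 11.7 and 7.78 FPKM in KO, against 5.55, 9.27 and 2.86 FPKM in WT. The libraries took the same order as for Prdx1, again with KO replicate 3 below WT replicate 2. Its log2 difference of 1.10 (SE 0.43, 95% interval 0.10 to 2.09, adjusted p = 0.26 by limma) had the highest SE of the members. The ratio of Srxn1 to Prdx1 FPKM averaged 0.0341 ± 0.00267 in KO and 0.0265 ± 0.00807 in WT (SD, n = 3 each) and overlapped (exact two-sided permutation p = 0.2, adjusted p = 0.2 over 5 ratios). Prdx1 (chr4:116685544-116700822) and Srxn1 (chr2:152105516-152111376), both plus-strand genes, overlap no other annotated gene.

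Ordered by mean FPKM, which is set per length, Prdx1 at 395 FPKM in KO and 211 FPKM in WT stood far above all the others. In KO it was followed by Gsr, Txnrd1, Nfe2l2, Gclm, Keap1, Gclc, Srxn1, Slc7a11 and Nqo1. In WT it was followed by Txnrd1, Keap1, Nfe2l2, Gclc, Gsr, Gclm, Srxn1, Slc7a11 and Nqo1. Gsr thus stood next after Prdx1 in KO, and after Txnrd1, Keap1, Nfe2l2 and Gclc in WT. Neighbours such as Gsr and Txnrd1 in KO, at 41.6 ± 17.1 and 38.9 ± 7.18 FPKM, or Keap1 and Nfe2l2 in WT, at 20.8 ± 1.34 and 20.4 ± 1.11 FPKM (SD, n = 3), differed by less than their spread.

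The members also differed in how they followed the macrophage markers from library to library. KO replicate 1 held the highest KO value for 8 of 10 members and WT replicate 3 the lowest WT value for 8 of 10, and these libraries also had the highest and the lowest core macrophage level. Gsr put all 6 libraries in the same order as the core macrophage markers. Its log2(FPKM + 1) minus the core macrophage mean was -2.37, -2.47 and -2.48 in KO, against -2.21, -2.55 and -2.05 in WT, a difference of -0.17 with overlapping groups. For Slc7a11 this relative level differed by -0.44, also with overlap. For the other 8 members the relative level was lower in every KO library than in every WT library, as it was for 93.5% of all genes tested, since the subtracted mean itself is higher in every KO library. It differed by -0.53 for Srxn1, by -1.10 for Nfe2l2 and, at the far end, by -1.58 for Gclc and -1.75 for Keap1, whose own log2 differences were 0.04 and -0.12. These relative values describe the libraries and do not separate the cells that made each RNA. B cell markers, which were abundant throughout, had a mean log2 level of 7.80 ± 0.12 in KO and 8.02 ± 0.04 in WT (SD, n = 3 each), a difference of -0.22. This level was lower in every KO library than in every WT library (exact two-sided permutation p = 0.1).

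**Figure D3:**
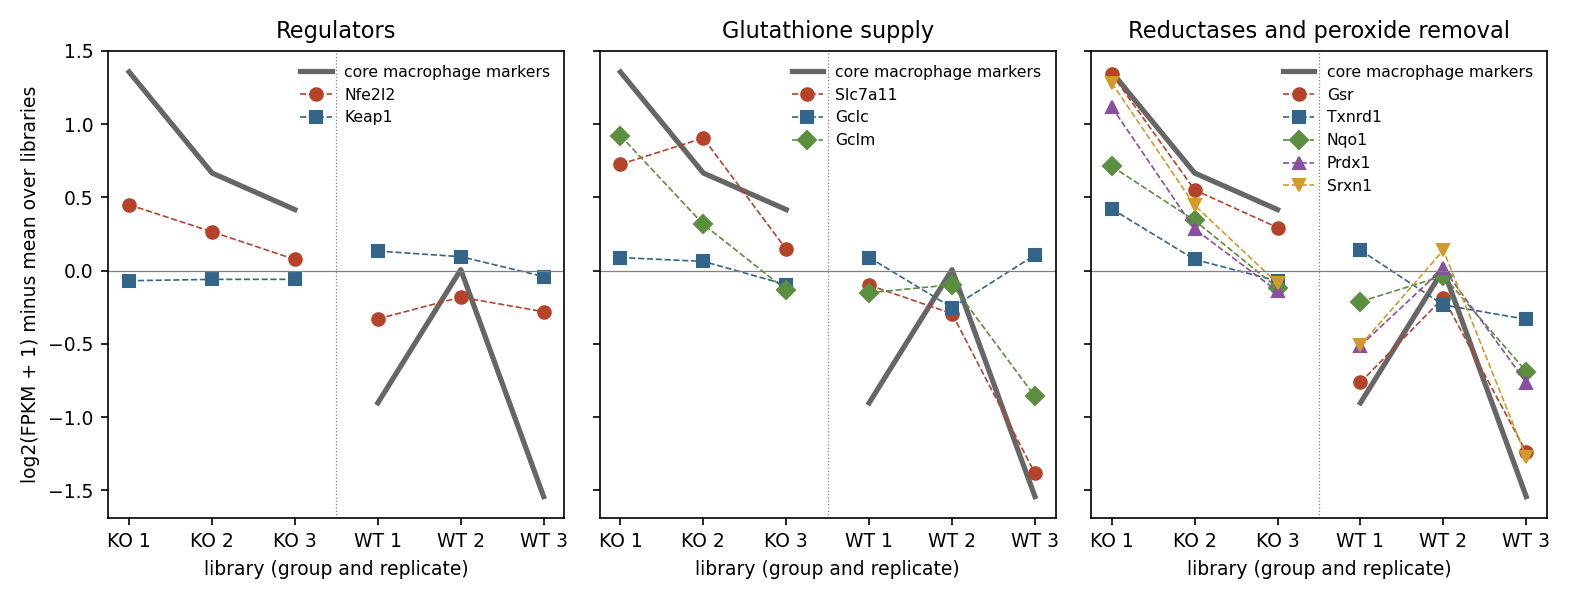
Level of each gene in each library on log2(FPKM + 1), centred on its mean over the 6 libraries, with the mean of the 10 core macrophage markers as the thick line. KO libraries are left of the dotted line, and lines only join points of one group. Gsr follows the thick line closely, while Keap1 and Gclc stay near 0.

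The other genes of the pathway were examined as 5 lists with 101 genes in all, of which 90 passed the filter. By limma 0 of the 90 were called in either direction, beside 0.0280% of all genes. By voom on the recovered reads the number was also 0, and at an unadjusted limma p under 0.05 it was 27 higher and 4 lower in KO, where 8.86% of all genes were higher and 8.21% lower. Among the partners of NRF2 and KEAP1, 11 genes had a median log2 difference of -0.01. Mafg, a small MAF protein that NRF2 pairs with, stood at 10.6, 10.04 and 9.42 FPKM in KO, against 7.57, 8.19 and 7.41 FPKM in WT (log2 difference 0.34, adjusted p = 0.13 by limma). Bach1, which competes with NRF2 for its sites, averaged 7.43 ± 0.543 FPKM in KO and 5.89 ± 0.793 FPKM in WT. Both had KO values above all WT values. Mafk and Trim21, the other genes of this list with the smallest p, were lower in KO by mean, with log2 differences of -0.14 and -0.21, and overlapped.

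Among 32 glutathione enzymes and transporters the median difference was 0.09, with 20 positive and 12 negative. The genes with the smallest p were Gstm2, a glutathione transferase, Mgst1, a microsomal one, Abcc1, an exporter of glutathione conjugates, and Esd, which takes part in clearing formaldehyde bound to glutathione. Mgst1 had 71.8, 43.96 and 35.5 FPKM in KO, against 14.8, 25.99 and 13.3 FPKM in WT (log2 difference 1.43, SE 0.31, adjusted p = 0.11 by limma). Gstm2 averaged 3.22 ± 1.07 FPKM in KO and 0.778 ± 0.571 FPKM in WT (SD, n = 3 each). It belongs to a family of similar genes that may share reads. Of these 32 genes, 5 had every KO value above every WT value, as did 9.75% of all genes tested. Another 5 of the 32 had every KO value below every WT value, as did 15.2% of all genes tested. At an unadjusted limma p under 0.05, 9 of these 32 genes were higher and 4 lower in KO. Of all genes tested, 8.86% were higher and 8.21% lower at that p. The 4 lower genes, named after their values were seen, were Ggt1 with a log2 difference of -0.42, Ggt5 with -0.27, Mgst2 with -0.43 and Gstt2 with -0.32, and their adjusted limma p ran from 0.20 to 0.28. The central enzymes were closer: Gss, which completes glutathione, averaged 6.16 ± 0.734 FPKM in KO and 5.76 ± 0.673 FPKM in WT. The peroxidase Gpx1 averaged 222 ± 14.2 FPKM in KO and 206 ± 49.3 FPKM in WT, and Gpx4, which protects membrane lipids, 124 ± 24.1 FPKM in KO and 111 ± 7.49 FPKM in WT. For these 3 the log2 differences lay between 0.08 and 0.14, and the groups overlapped.

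The thioredoxin list of 17 genes had a median difference of 0.09. Prdx5, a peroxiredoxin of mitochondria and peroxisomes, had 228, 140.5 and 125 FPKM in KO, against 78.8, 109 and 63.7 FPKM in WT (log2 difference 0.95, adjusted p = 0.15 by limma). Txn1, thioredoxin itself, averaged 142 ± 28.1 FPKM in KO and 88.1 ± 28.7 FPKM in WT, and Prdx6 76.8 ± 20.5 FPKM in KO and 47.8 ± 19.004 FPKM in WT, both with overlap. Msrb1, a methionine sulfoxide reductase, had KO values above all WT values. Prdx2 and Prdx3, chosen for comparison after their values were seen, had log2 differences of 0.04 and -0.03.

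NADPH drives both Gsr and Txnrd1, and the 11 genes of its supply had a median difference of 0.30, with 9 positive. Idh1, the cytosolic isocitrate dehydrogenase, had 55.9, 32.7 and 31.2 FPKM in KO, against 13.8, 20.5 and 12.4 FPKM in WT, with no overlap (log2 difference 1.29, SE 0.26, adjusted p = 0.11 by limma). Nadk, which makes NADP, also had no overlap, at 68.7 ± 5.58 FPKM in KO and 55.7 ± 2.86 FPKM in WT (SD, n = 3 each). G6pdx and Pgd, of the oxidative pentose phosphate pathway, had log2 differences of 0.43 and 0.85 and overlapped, as did Me1 with 0.51.

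Among 19 other NRF2 targets and antioxidant enzymes, 15 had a positive difference and the median was 0.38. Hmox1, the haem oxygenase that both NRF2 and BACH1 control, had 256, 117 and 87.6 FPKM in KO, against 42.05, 101 and 30.96 FPKM in WT. WT replicate 2 lay above KO replicate 3, and the log2 difference of 1.42 had an SE of 0.51 (adjusted p = 0.23 by limma). Fth1, the ferritin heavy chain, averaged 5129 ± 964 FPKM in KO and 2423 ± 982 FPKM in WT, without overlap, and has processed copies that may share reads. Sod2, the mitochondrial superoxide dismutase, averaged 49.4 ± 16.1 FPKM in KO and 21.6 ± 5.98 FPKM in WT (SD, n = 3 each), also without overlap. The haem-product reductases Blvra and Blvrb had log2 differences of 0.47 and 1.01 and overlapped. Without WT replicate 2, 10 genes of the 5 lists were called by limma, among them Mgst1, Gstm2, Idh1, Hmox1, Fth1 and Sod2, when 5.01% of all genes were called.

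**Figure D4:**
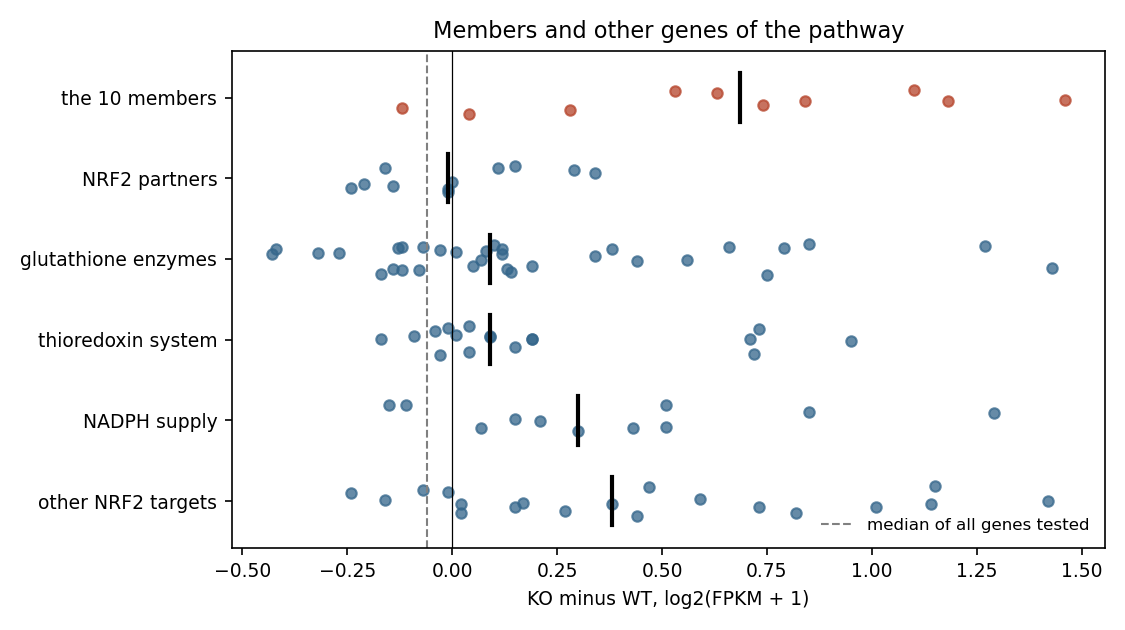
KO minus WT differences on the log2(FPKM + 1) scale for the 10 members and for the tested genes of the 5 pathway lists, with 1 point per gene, the median of each as a bar and the median of all genes tested, -0.06, as the dashed line. The members have a median of 0.68 and the lists medians between -0.01 and 0.38.

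The genes most like Nfe2l2 and Gsr were named by the largest gap, over the 6 libraries, between the log2(FPKM + 1) values after each gene was centred on its own mean. For Nfe2l2 these were Atp1b3, a subunit of the sodium-potassium pump, with a largest gap of 0.051, Nucb2 with 0.074, and Rgs10, a regulator of G protein signalling, with 0.093. The nearest member to Nfe2l2 was Nqo1, with a gap of 0.407. For Gsr they were Pros1, which encodes protein S, with 0.105, Cd300lb, a myeloid surface receptor, with 0.124, and Cd93, a surface glycoprotein on the peritoneal macrophage marker list, with 0.145. Its nearest member was Srxn1, with 0.382. Pros1 stood at 19.1, 12.1 and 9.52 FPKM in KO, against 3.66, 6.77 and 2.76 FPKM in WT. All 6 genes, chosen for this likeness, had KO values above all WT values.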

How the data were processed

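FPKM per gene symbol were deposited by the authors, with 1 table per library, on mm10 per the submitters' processing notes. The sources used here name no aligner, counting tool, strand setting or annotation. Groups came from sample titles. The 10732 genes averaging 1 FPKM or more were tested on log2(FPKM + 1) with limma 3.58.1 in R 4.3.3 (mean-variance trend, Benjamini-Hochberg adjustment). Low values are whole multiples of 1 read, which gave whole reads within 0.002 for all 19331 genes above 0 in several libraries, up to a common factor per gene. Simulated tables of KO and WT with 200 of 10732 genes changed gave 42.5% recovery and 3 false calls at 1.5-fold, 80.5% and 4 at 2-fold, and 97.5% and 11 at 4-fold. The changed genes were drawn at random and the noise was independent between genes. Variation that genes share across the real libraries was thus left out, and these percentages do not apply to the members. Members and lists were chosen with earlier results of these data known, and the ratios of gene pairs after their values were seen. Named genes were all members, the 4 of each list with the smallest p, 9 central genes, and the 3 genes most like Nfe2l2 and Gsr. Positions are from GENCODE M21 (GRCm38), and promoters from RefSeq. Alternatives were other pseudocounts, filters, scalings, variance models, voom, a replicate block, a macrophage covariate and leaving out each library. Python 3.11.15, pandas 2.3.3, numpy 2.4.6, scipy 1.17.1 and matplotlib 3.10.9 were used. Protein sequences and splice forms were not analysed here. Not every gene of the marker lists is reported here.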

Additional observations from a re-analysis of the deposited data

How the results depend on the processing

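The median difference of the 10 members, 0.68, ran from 0.53 to 0.81 under other pseudocounts, filters, scalings and variance models and voom, and from 0.45 to 0.91 when 1 library was left out. It was -0.10 with the core macrophage level as a covariate, where Gclm was -0.29, Nqo1 -0.22, Prdx1 -0.35 and Srxn1 -0.59. In the same fit Gsr was 0.15, Slc7a11 0.24, Nfe2l2 0.27, Gclc 0.26, Txnrd1 0.01 and Keap1 -0.21. The core macrophage level itself differs between the groups by 1.63. Gclc, at 0.04, was -0.01 with array weights and between -0.08 and 0.11 when 1 library was left out. Array weights called 2 members (Nfe2l2 and Gsr), 11 list genes and 612 genes in all. Leaving out 1 library gave 0 to 2 members, 0 to 10 list genes and 0 to 538 genes, each highest without WT replicate 2, and 0 genes in all without WT replicate 1 or 3 (1697 and 1247 at an unadjusted limma p under 0.05). Of all genes, 6 were called with 5 added, 5 by voom, 0 with no filter (2648 at that unadjusted p) and 0 with the covariate (1308). The replicate block called 11 genes and 0 members. Same-numbered libraries deviated from their group means with correlations of -0.208, -0.376 and 0.273. With 3 libraries per group such deviations depend on each other, so these values cannot tell whether the replicate numbers pair the samples. The causes of these shifts were not tested.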
